A study of Mus musculus with 12 samples.

Results

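Expression of 38 genes of glycolysis and of the hypoxia response was followed in the neural retina of 129 and B6 mice, before and after retinal damage in explant culture and with or without an inhibitor of GSK3. The 38 members were taken as a list of named genes, and a probe set was assigned to a member when the annotation of the array gave it that single gene symbol, with Ero1l also written as Ero1a. They comprise 4 carriers of glucose and lactate, enzymes of the glycolytic chain and 4 kinases that regulate that chain or pyruvate dehydrogenase. The others are 3 genes of oxygen sensing and 10 genes that hypoxia induces. In all, 79 of the 45101 probe sets carried a member's symbol, and 76 of them, standing for 35 members, were among the 45037 probe sets (18193 genes with a single symbol) that were tested. Gapdh was present only through 3 control probe sets of the array and is described without a test, and Gpi1 and Eno1 were not analysed here because no probe set carried their symbol alone.

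Glycolysis splits glucose into pyruvate in the cytosol, and lactate dehydrogenase then reduces pyruvate to lactate, which leaves the cell through monocarboxylate carriers. The outer retina is known for aerobic glycolysis: photoreceptors convert much of their glucose to lactate even when oxygen is present, and they carry the hexokinase Hk2 beside the widespread Hk1. When oxygen falls, the prolyl hydroxylases Egln1 and Egln3 no longer mark the transcription factor subunit Hif1a for destruction, and Hif1a then induces glucose carriers, glycolytic enzymes, Vegfa and a set of genes that includes Bnip3, Ankrd37 and Egln3 itself. Hif1a is controlled mostly through the stability of its protein, which an array of mRNA does not measure.

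The 12 arrays form 6 groups of 2, from 10-week-old male mice whose neural retina had been separated from lens and pigmented epithelium. The strains were 129X1/SvJJmsSlc (129) and C57BL/6NCrSlc (B6). For each strain there were explants cultured for 3 days (3DIV) with the GSK3 inhibitor CHIR99021 at 15 µM, explants cultured for 3 days without it (named for the vehicle DMSO in the labels), and normal, uncultured retina. The explants are a model of damage in which photoreceptors lose their contact with the pigmented epithelium, so damage and 3 days in culture cannot be told apart. Both arrays of each group are labelled as biological replicates, with nothing to say whether separate animals gave them, so every p-value here measures the spread between such arrays. Because whole retina was measured, fewer cells of a type and less RNA per cell cannot be told apart.

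Values are log2 intensities. The arrays of a group correlated with each other at 0.9965 to 0.9978 over all probe sets, and the median gap between the arrays of a group was 0.06 to 0.09 log2 units over the members' probe sets. One array stood apart: the mean of 9 lens markers was 9.89 on 129 normal replicate 2 and 5.96 on 129 normal replicate 1, against 4.53 to 5.14 on the other 10 arrays. The mean of 10 markers of the pigmented epithelium was 6.83 and 7.64 in normal 129 retina and 7.98 and 7.77 in normal B6 retina, against 4.90 to 5.13 on the 8 arrays of explants. The main counts that rest on normal 129 retina are therefore also given without 129 normal replicate 2.

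Start sites of 36 members were found in the RefSeq promoter table of GRCm38.p6 (all but Slc2a3 and Ndrg1), with windows of 300 bases from 250 bases before to 50 bases after each start. The core of the element that HIF binds was searched as ACGTG or GCGTG on either strand, and 33 of the 36 members (91.7%) held it in at least 1 window, against 46.7% of 27025 genes. Genes differ in their number of windows. Counted by window, the shares were 78.8% of the 52 windows of members and 43.8% of all 32851 windows. The windows of the members also had a higher median GC content, 62.8% against 52.7% for all windows, and its part in the difference was not tested. Windows of 5 members are shown for members whose changes are described below, 5′ to 3′ on the gene's strand with each match in capitals (CACGT and CACGC are matches on the other strand): the member that fell most after damage (Hk2), a glycolytic gene and a hypoxia gene that fell at least 2-fold in both strains (Pkm and Bnip3), the member with the largest response to the inhibitor at the probe set that stands for its gene (Ankrd37) and the member whose change differed between the strains (Ero1l). The Hk2 window lies at chr6:82774405-82774704 on the minus strand, the Pkm window at chr9:59656977-59657276 on the plus strand, the Bnip3 window at chr7:138909457-138909756 on the minus strand, the Ankrd37 window at chr8:45999801-46000100 on the minus strand and the Ero1l window at chr14:45318523-45318822 on the minus strand.
Hk2: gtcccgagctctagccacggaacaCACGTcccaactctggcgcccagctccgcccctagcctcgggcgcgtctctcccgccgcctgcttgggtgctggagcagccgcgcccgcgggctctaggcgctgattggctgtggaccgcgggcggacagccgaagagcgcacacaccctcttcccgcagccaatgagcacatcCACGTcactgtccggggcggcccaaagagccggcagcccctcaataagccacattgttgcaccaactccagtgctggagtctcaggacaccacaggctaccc
Pkm: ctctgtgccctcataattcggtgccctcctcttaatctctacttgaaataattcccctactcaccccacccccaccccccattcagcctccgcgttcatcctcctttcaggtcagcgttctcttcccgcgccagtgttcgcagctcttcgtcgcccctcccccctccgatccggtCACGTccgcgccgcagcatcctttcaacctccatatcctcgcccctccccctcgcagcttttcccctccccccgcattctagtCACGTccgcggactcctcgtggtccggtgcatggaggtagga
Bnip3: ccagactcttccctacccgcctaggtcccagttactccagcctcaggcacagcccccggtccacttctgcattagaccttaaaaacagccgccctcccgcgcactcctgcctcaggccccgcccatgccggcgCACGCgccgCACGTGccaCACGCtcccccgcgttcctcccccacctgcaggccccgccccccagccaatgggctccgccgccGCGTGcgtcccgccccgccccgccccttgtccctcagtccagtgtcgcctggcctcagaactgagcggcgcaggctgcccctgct
Ankrd37: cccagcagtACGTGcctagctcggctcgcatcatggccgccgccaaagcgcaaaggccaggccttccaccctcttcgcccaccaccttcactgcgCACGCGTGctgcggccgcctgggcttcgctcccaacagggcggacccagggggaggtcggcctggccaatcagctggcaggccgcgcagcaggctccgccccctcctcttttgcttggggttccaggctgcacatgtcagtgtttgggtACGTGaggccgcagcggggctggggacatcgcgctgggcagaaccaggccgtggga
Ero1l: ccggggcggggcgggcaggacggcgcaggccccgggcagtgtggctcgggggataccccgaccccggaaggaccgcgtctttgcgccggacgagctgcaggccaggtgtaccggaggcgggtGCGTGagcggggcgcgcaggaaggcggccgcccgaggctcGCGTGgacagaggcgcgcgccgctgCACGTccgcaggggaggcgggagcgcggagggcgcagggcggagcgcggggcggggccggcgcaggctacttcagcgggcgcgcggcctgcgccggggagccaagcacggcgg
Counted on both strands, with overlapping matches counted separately, Bnip3 held 5 matches, of which 2 share the palindrome CACGTG. Ankrd37 held 4 matches, with a pair that overlap, Ero1l held 3, and Hk2 and this Pkm window held 2 each. The other Pkm window held none. CACGTG occurred in 16.7% of the 36 members and 8.1% of all genes, and in 11.5% and 7.2% of their windows. A match describes the letters of the C57BL/6J reference, and neither binding nor the sequence of 129 was measured.

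Most of these genes were lower in explants at 3DIV than in normal retina, in both strains. In 129 explants at 3DIV, 28 of the 35 measured members were lower than in normal 129 retina and 1 was higher (limma, adjusted p under 0.05), with a median log2 difference of -0.51 over the 35. In B6 explants 26 were lower and none was higher, with a median of -0.65, and 28 of 35 had an unadjusted p under 0.05. Over all genes tested, 17% were lower and 19.1% higher in 129 by adjusted p, with a median of -0.01. In B6, 16.9% were lower and 19.3% higher by adjusted p, with a median near 0. The members called lower were thus 80% of those measured in 129 and 74.3% in B6. Of the 35, 25 (against 11.2% of all genes) were lower in both strains. In 129 alone, 4 were called (Slc2a3, Ldhb and Ndrg1 lower and Pdk3 higher), in B6 alone 1 (Ero1l, lower), and in neither 5 (Hk1, Pfkfb4, Hif1a, Adm and P4ha2). Over all genes, 11% were called in 129 alone, 11.1% in B6 alone and 52.8% in neither. Without 129 normal replicate 2, which carried the lens signal, 23 members were called in 129 and 19 were lower in both strains, while the count over all genes in 129 was 5077, against 6578 with it.

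**Figure D1:**
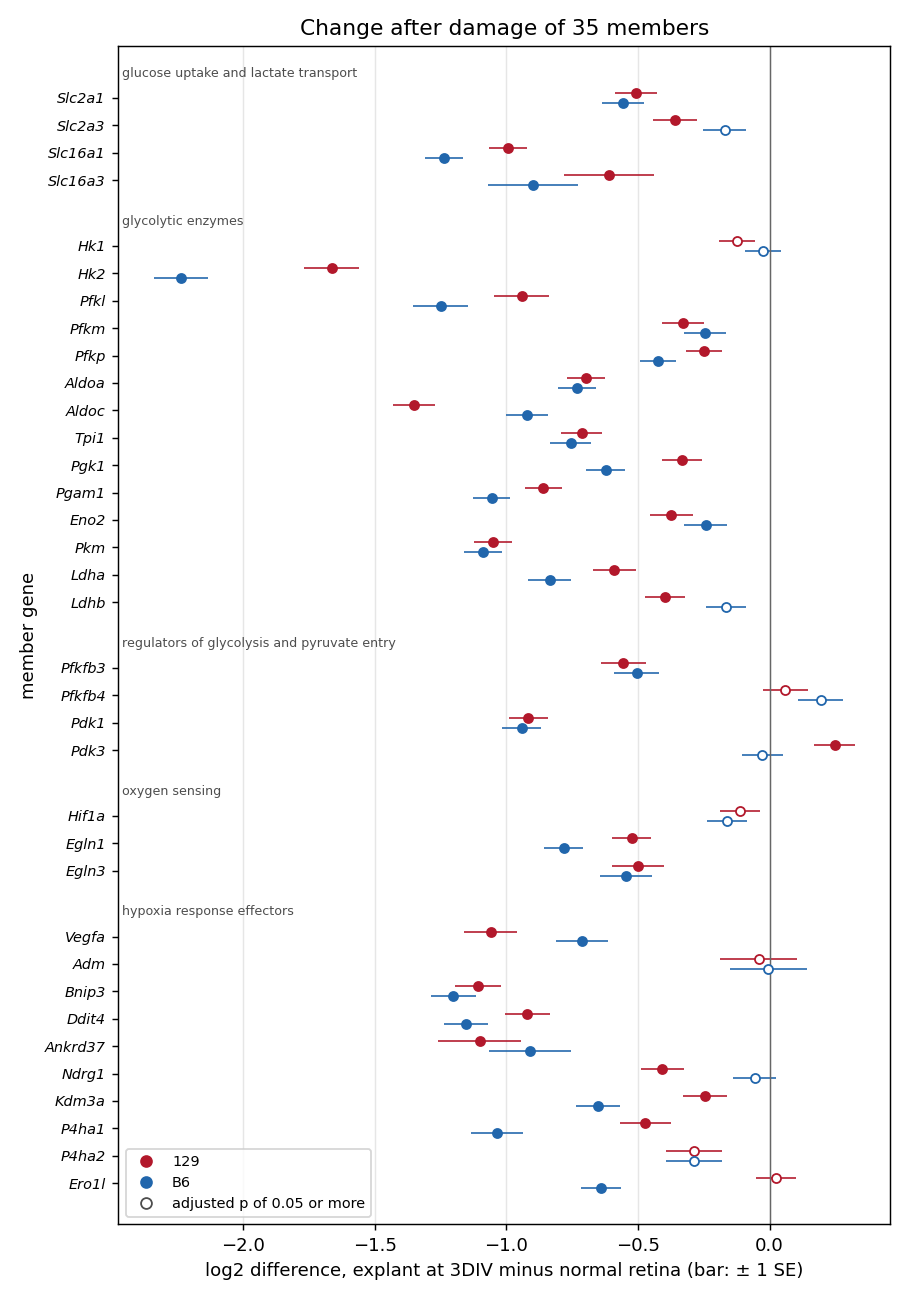
Log2 difference between explants at 3DIV and normal retina for each of the 35 measured members, grouped by role, with 129 (red) above B6 (blue) and bars of ± 1 SE. Filled points have an adjusted p under 0.05. Hk2 lies farthest to the left, at -1.66 in 129 and -2.24 in B6, and only 3 members in 129 and 1 in B6 have a value above 0.

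Among the carriers, Slc16a1, which exports lactate together with protons, fell most. Its log2 signal was 11.00 and 10.95 in 129 explants and 11.96 and 11.97 in normal 129 retina, and 10.68 and 10.82 in B6 explants and 12.02 and 11.95 in normal B6 retina. No array of explants reached those of normal retina (-0.99 ± 0.07 in 129 and -1.24 ± 0.07 in B6, SE, adjusted p = 1.84e-06 and 3.87e-07). Slc2a1, the widespread glucose carrier of the blood-retinal barrier and photoreceptors, fell by 1.42-fold in 129 and 1.47-fold in B6, and all 3 of its probe sets were lower in both strains. Slc16a3, a lactate exporter that hypoxia induces, was called lower in both strains, with 4.74 and 4.53 in 129 explants and 5.26 and 5.23 in normal 129 retina, and 4.68 and 4.53 in B6 explants and 5.16 and 5.85 in normal B6 retina. The explant values lie close to the mean of the lens markers on those arrays (4.53 to 4.66) and were not shown to exceed background, so no fold is given. Its call in 129 was lost without any 1 of 3 arrays (adjusted p up to 0.12 without 129 3DIV replicate 2). Slc2a3, the carrier of neurons, passed only in 129 (-0.36, against -0.17 in B6), and a difference between the strains was not shown (adjusted p = 0.456). Its call in 129 was lost without 129 3DIV replicate 1 (adjusted p = 0.059).

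Of the 14 glycolytic enzymes tested, 13 fell in 129 (10 without 129 normal replicate 2) and 12 in B6. Hk2, the hexokinase that can bind mitochondria and is enriched in photoreceptors, had the largest change of all members in either strain, at the probe sets that stand for the genes. Its signal was 9.84 and 9.99 in 129 explants and 11.47 and 11.69 in normal 129 retina, against 9.94 and 10.11 in B6 explants and 12.19 and 12.33 in normal B6 retina. All 4 explant arrays lay between 9.84 and 10.11, whereas the normal arrays lay between 11.47 and 12.33, so that Hk2 fell by 3.17-fold in 129 and 4.71-fold in B6 (adjusted p = 5.49e-07 and 7.63e-08). Hk1, which catalyses the same step, did not pass in either strain (-0.12 ± 0.07 in 129 and -0.02 ± 0.07 in B6).

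Phosphofructokinase, the committing step of glycolysis, is built from liver (Pfkl), muscle (Pfkm) and platelet (Pfkp) type subunits. Pfkl had a signal of 8.51 and 8.53 in 129 explants and 9.40 and 9.52 in normal 129 retina, and of 8.64 and 8.63 in B6 explants and 9.75 and 10.03 in normal B6 retina. It fell by 1.92-fold in 129 and 2.38-fold in B6, while Pfkm fell by 1.26-fold and 1.19-fold and Pfkp by 1.19-fold and 1.34-fold. The small changes of Pfkm in both strains and of Pfkp in 129 were no longer called when single arrays were left out (adjusted p up to 0.21 for Pfkm in B6, without B6 3DIV replicate 1, and up to 0.059 in 129, and up to 0.12 for Pfkp, both without 129 normal replicate 2).

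Aldolase cleaves fructose bisphosphate, and its Aldoc form is typical of neural tissue. Aldoc had a signal of 11.46 and 11.42 in 129 explants and 12.74 and 12.84 in normal 129 retina, against 11.96 and 12.01 in B6 explants and 12.92 and 12.89 in normal B6 retina. It fell by 2.55-fold in 129 and 1.9-fold in B6, and the difference of -0.43 ± 0.11 between the strains did not pass (adjusted p = 0.0804). Aldoa, the form found in most tissues, fell by 1.62-fold in 129 and 1.66-fold in B6, and all 5 of its probe sets were lower in both strains.

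The enzymes of the later steps fell in both strains, apart from Ldhb in B6. Pgam1, the phosphoglycerate mutase, had 11.28 and 11.29 in 129 explants and 12.08 and 12.20 in normal 129 retina, and 11.27 and 11.33 in B6 explants and 12.33 and 12.38 in normal B6 retina (1.81-fold and 2.08-fold lower). Pkm, the pyruvate kinase of photoreceptors and most other cells outside liver and blood, had 10.55 and 10.59 in 129 explants and 11.58 and 11.66 in normal 129 retina, and 11.09 and 11.15 in B6 explants and 12.15 and 12.26 in normal B6 retina. It fell by 2.07-fold in 129 and 2.13-fold in B6, and in each strain both explant arrays lay below both normal arrays. Tpi1, the triose isomerase, fell by 1.64-fold and 1.69-fold, Pgk1, which makes the first ATP of the chain's second phase, by 1.26-fold and 1.54-fold, and the neuronal enolase Eno2 by 1.3-fold and 1.18-fold, in 129 and B6. The Pgk1 call in 129 was lost without 129 normal replicate 2 (adjusted p = 0.065), and the Eno2 call in B6 without any 1 of 9 arrays (adjusted p up to 0.29, without B6 3DIV replicate 1).

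Lactate dehydrogenase is a tetramer of Ldha, which favours lactate formation, and Ldhb. Ldha fell by 1.51-fold in 129 and 1.78-fold in B6 (adjusted p = 0.00022 and 1.82e-05). Ldhb had a signal of 11.07 and 11.00 in 129 explants and 11.39 and 11.47 in normal 129 retina, and of 11.32 and 11.41 in B6 explants and 11.56 and 11.50 in normal B6 retina. It passed only in 129 (-0.40, against -0.17 in B6, adjusted p = 0.124), with a difference between the strains that did not pass (adjusted p = 0.298). The Gapdh control probe set at the 3′ end read 13.33 and 13.29 in 129 explants and 13.70 and 13.74 in normal 129 retina, and 13.54 and 13.57 in B6 explants and 13.85 and 13.91 in normal B6 retina. The control probe set at the 5′ end differed from it by at most 0.035 log2 units on any array. For actin, the 3′ control probe set lay above the 5′ one by 0.584 to 0.765 on the 8 explant arrays and 0.837 to 1.049 on the 4 normal arrays, a gap that is used as a sign of RNA quality. It moved with damage, and its part in the fall of the members was not tested.

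Of the regulators, Pdk1, which inhibits pyruvate dehydrogenase and is a HIF target, fell by 1.89-fold in 129 and 1.92-fold in B6. Pfkfb3, whose product activates phosphofructokinase, fell by 1.47-fold and 1.42-fold. By the median of a gene's probe sets, the Pdk1 calls were lost in both strains and the Pfkfb3 call in B6. So were the calls of Vegfa in B6 and of Egln1 and P4ha1 in 129, which are described below. Pfkfb4 did not pass in either strain (0.06 in 129 and 0.19 in B6). Pdk3, a second kinase of pyruvate dehydrogenase, had 8.48 and 8.56 in 129 explants and 8.26 and 8.29 in normal 129 retina, and 8.26 and 8.29 in B6 explants and 8.38 and 8.23 in normal B6 retina. It was the single member called higher after damage, in 129 (0.25 ± 0.08, adjusted p = 0.0326), and this call was lost without any 1 of the 4 arrays compared (adjusted p up to 0.17, without 129 3DIV replicate 2) and turned to a value of -0.10 when the arrays were centred on housekeeping genes.

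Both prolyl hydroxylases among the members fell. Egln1 fell by 1.44-fold in 129 and 1.72-fold in B6, and Egln3, itself a HIF target, by 1.41-fold and 1.46-fold. Egln2, of the same family but not a member, was called higher in B6 explants (mean 8.93, against 8.65 in normal B6 retina). In 129 its means were 8.83 in explants and 8.71 in normal retina. The B6 call was lost when single arrays were left out, and the value changed sign with centring on housekeeping genes. Hif1a, at the probe set with the highest signal, had 12.64 and 12.71 in 129 explants and 12.86 and 12.72 in normal 129 retina, and 12.46 and 12.47 in B6 explants and 12.59 and 12.67 in normal B6 retina. These values differed by -0.11 ± 0.07 in 129 and -0.16 ± 0.07 in B6 and did not pass (adjusted p = 0.302 and 0.13). At 1431981_at, at the 38.9 percentile of signal, Hif1a was called lower in both strains. The means there were 5.39 in 129 explants and 5.90 in normal 129 retina, and 5.13 in B6 explants and 5.63 in normal B6 retina. Both calls were lost when single arrays were left out.

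Of the 10 effectors, 7 fell in each strain (6 in 129 without 129 normal replicate 2). Bnip3, which promotes the removal of mitochondria, had 9.66 and 9.62 in 129 explants and 10.69 and 10.80 in normal 129 retina, and 9.99 and 9.82 in B6 explants and 11.06 and 11.15 in normal B6 retina (2.15-fold and 2.3-fold lower). Ddit4, an inhibitor of mTORC1, had 10.02 and 10.17 in 129 explants and 10.99 and 11.04 in normal 129 retina, and 10.07 and 10.19 in B6 explants and 11.36 and 11.21 in normal B6 retina (1.89-fold and 2.22-fold lower). For both genes no explant array of a strain reached its normal arrays.

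Vegfa, the main growth factor of retinal vessels, had 8.79 and 8.91 in 129 explants and 9.87 and 9.95 in normal 129 retina, and 8.80 and 9.02 in B6 explants and 9.62 and 9.63 in normal B6 retina. It fell by 2.08-fold in 129 and 1.64-fold in B6. Ankrd37, a small ankyrin repeat protein known as a HIF target, had 7.63 and 7.47 in 129 explants and 8.57 and 8.74 in normal 129 retina, and 7.82 and 8.08 in B6 explants and 8.93 and 8.80 in normal B6 retina. It fell by 2.15-fold in 129 and 1.88-fold in B6.

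P4ha1, a subunit of the enzyme that hydroxylates proline in collagen, had 7.88 and 8.05 in 129 explants and 8.35 and 8.53 in normal 129 retina, and 7.86 and 7.81 in B6 explants and 8.79 and 8.95 in normal B6 retina. It fell by 1.39-fold in 129 and 2.05-fold in B6, and the difference of 0.56 ± 0.14 between the strains did not pass (adjusted p = 0.0617). Kdm3a, a histone demethylase that hypoxia induces, fell by 1.18-fold and 1.57-fold in 129 and B6, the 129 call being lost without any 1 of 10 arrays (adjusted p up to 0.19, without 129 normal replicate 2). Ndrg1, a stress-induced gene, passed only in 129 at the probe set that stands for it (-0.41, against -0.06 in B6). A difference between the strains was not called. At 1450977_s_at a fall also passed in B6 (mean 8.23 in explants and 8.51 in normal retina), a call lost when single arrays were left out. P4ha2 and Adm, which encodes the vasodilator adrenomedullin, passed in neither strain (-0.29 and -0.04 in 129, -0.29 and -0.01 in B6).

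Averaged over the 35 members, the log2 signal was 9.63 and 9.65 in 129 explants and 10.18 and 10.24 in normal 129 retina, and 9.71 and 9.73 in B6 explants and 10.35 and 10.41 in normal B6 retina. Over the 12 arrays, 25 members followed the mean of the other members with a correlation above 0.8, and 3 (Pdk3, Pfkfb4 and Adm) had a correlation below 0. These correlations are given as a description, since all members share the same arrays and much of their variation lies between normal and cultured retina. Aldoa, Hk2, Pfkl and Bnip3 had the highest correlations, of at least 0.99.

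Markers of several cell types moved in the same comparison. All 10 rod markers measured were lower after damage in both strains, with a median of -1.31 in 129 and -1.23 in B6, and their mean signal was 11.33 to 11.45 in 129 explants and 12.78 to 13.02 in normal 129 retina, and 11.50 to 11.52 in B6 explants and 12.72 to 12.91 in normal B6 retina. Of 7 cone markers, 6 were lower and 1 higher in each strain (median -2.95 in 129 and -2.84 in B6). Of 12 markers of inner retinal neurons, 6 were lower in each strain and 1 was higher in 129 and 2 in B6 (median -0.25 in 129 and -0.28 in B6), while 11 of 12 microglia and macrophage markers and 8 of 9 markers of reactive gliosis were higher in 129 and 12 of 12 and 9 of 9 in B6, and 4 of 10 Müller glia markers were higher and 4 lower in 129, and 6 higher and 3 lower in B6. Of 10 vessel markers, 4 were higher and 1 lower in 129, and 2 higher and 2 lower in B6, and of 3 erythrocyte markers 1 was lower in 129 and none in B6. Of the pigmented epithelium markers, 8 of 10 were lower in 129 and 9 of 10 in B6, and 7 of 9 lens markers were lower in 129 and none in B6. The part of these changes in the fall of the members was not tested.

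Other genes of the same pathways did not fall together. Of 23 further genes of glycolysis and pyruvate metabolism that were measured, 5 rose and 7 fell after damage in 129, and 5 rose and 5 fell in B6, with medians of -0.17 and -0.10. Hkdc1, a hexokinase-like gene, rose by 4.13-fold in 129 and 5.25-fold in B6, and Gpd1, which links glycolysis to glycerol lipids, by 6.47-fold and 3.77-fold. Slc16a8, the lactate carrier of the pigmented epithelium, fell by 1.97-fold and 2.8-fold, Pfkfb2 by 2.98-fold and 2.41-fold, Tigar by 1.95-fold and 1.78-fold, and Bsg, the partner protein that brings Slc16a1 to the membrane, by 1.41-fold and 1.41-fold, in 129 and B6.

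Of 37 further genes of the hypoxia and HIF pathway, 11 rose and 11 fell in 129, and 11 rose and 13 fell in B6, with medians of -0.05 and -0.13. Hmox1, the haem oxygenase that oxidative stress also induces, rose in both strains. Its means were 8.58 in 129 explants and 5.23 in normal 129 retina, and 9.19 in B6 explants and 5.09 in normal B6 retina. The values in normal retina were not shown to exceed background, so no fold is given. Plin2, a coat protein of lipid droplets, rose by 4.92-fold and 4.96-fold, the lipase inhibitor Angptl4 by 3.11-fold and 2.76-fold, and the VEGF receptor Kdr by 2.55-fold and 2.83-fold. In the other direction, the mitochondrial adenylate kinase Ak4 fell by 2.72-fold and 4.08-fold and Selenbp1 by 2.68-fold and 1.95-fold.

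The change after damage differed between the strains at 1 member. Ero1l, an oxidase that forms disulphide bonds in the endoplasmic reticulum and a HIF target, had 8.73 and 8.76 in 129 explants and 8.70 and 8.74 in normal 129 retina, against 8.45 and 8.37 in B6 explants and 8.99 and 9.12 in normal B6 retina. The 129 arrays of both states thus lay within 0.05 log2 units of each other, while the B6 explants lay below normal B6 retina. The change was 0.03 ± 0.08 in 129 and -0.64 ± 0.08 in B6, with a difference of 0.67 ± 0.11 (adjusted p = 0.012). Its other probe sets gave differences of 0.51 (1419029_at, adjusted p = 0.0473) and 0.77 (1419030_at, adjusted p = 0.0193), although at 1419029_at the 129 explants were themselves higher than normal 129 retina (0.26). The difference was lost without B6 3DIV replicate 2 or 129 3DIV replicate 2 (adjusted p of 0.050 and 0.055), at 1419030_at without any 1 of 5 arrays (up to 0.072) and at 1419029_at without any 1 of the 12 (up to 0.15, both without 129 3DIV replicate 1). At the probe set that stands for Ero1l, the difference was still called without 129 normal replicate 2. Over all genes, 1.74% had a higher and 1.32% a lower change in 129 by adjusted p (1.55% and 1.03% of probe sets). Of the 35 members, 11 had an unadjusted p under 0.05, a threshold at which no share over all genes is given.

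**Figure D2:**
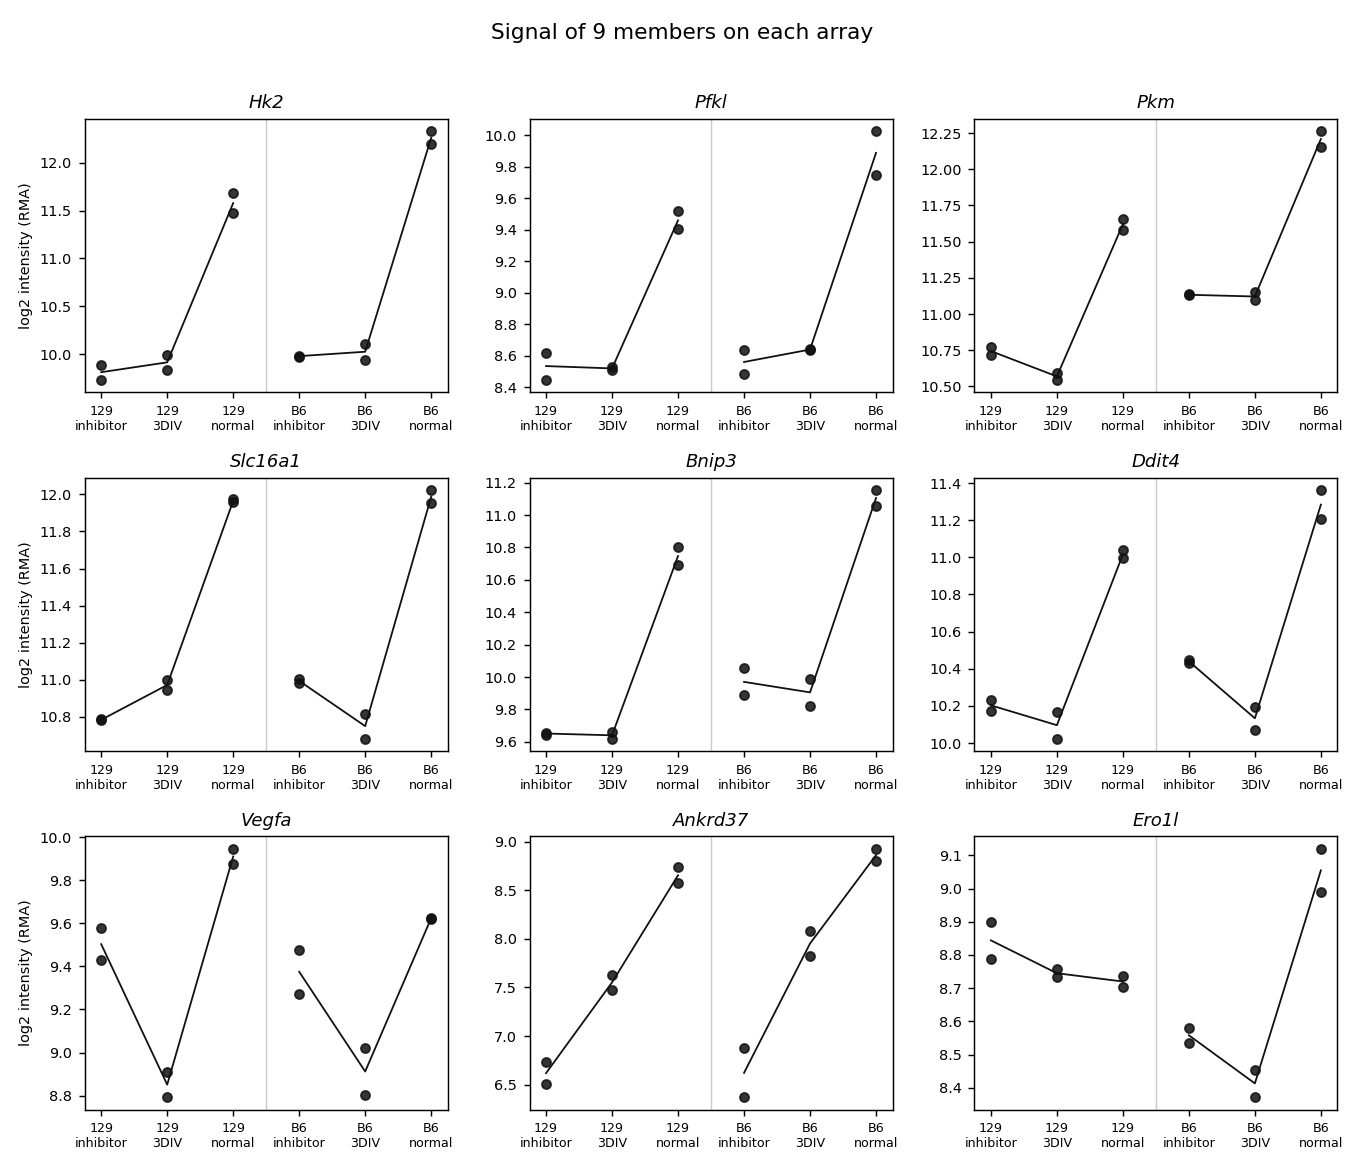
Log2 intensity of 9 members on each of the 12 arrays, with 129 on the left and B6 on the right of each panel and, within a strain, explants with the inhibitor, explants without it and normal retina. Points are arrays and lines join the group means. Hk2, Pkm and Bnip3 are high only in normal retina, Ankrd37 falls again with the inhibitor, Vegfa is higher with it, and Ero1l drops in B6 explants but not in 129 explants.

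In normal retina, 9 of the 35 members were lower in 129 than in B6 and none was higher, that is 25.7% lower, against 5.83% lower and 5.41% higher over all genes. The median over the members was -0.18, and 30 of 35 values lay below 0. Of the 9, 6 were glycolytic enzymes and 3 were effectors. Without 129 normal replicate 2, 6 members were called, and without B6 normal replicate 2 or 129 normal replicate 1 only 2. Over all genes the count was 2046 with all arrays and fell to 1282, 1441 and 1186 without these 3 arrays, in the same order. When the arrays were centred on 8 housekeeping genes, 2 were called higher and 2 lower in 129. Hk2 and Pkm were called whichever of the 12 arrays was left out.

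Hk2 was 1.61-fold lower in normal 129 than in normal B6 retina (adjusted p = 0.0015), whereas at 3DIV and with the inhibitor the strains differed by -0.11 ± 0.10 and -0.17 ± 0.10 and did not pass. Pkm was lower in 129 in all 3 states: by 1.31-fold with the inhibitor, 1.47-fold at 3DIV and 1.5-fold in normal retina (adjusted p = 0.00501, 0.000385 and 0.000339). With the inhibitor its signal was 10.77 and 10.72 in 129 and 11.13 and 11.13 in B6, so that no 129 array reached the B6 arrays of the same state.

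The other members lower in normal 129 retina were Hk1, Pfkl, Tpi1, Pgk1, Bnip3, P4ha1 and Ero1l. Hk1 read 12.06 and 12.10 in normal 129 retina and 12.31 and 12.35 in normal B6 retina, and 11.93 and 11.97 in 129 explants and 12.27 and 12.35 in B6 explants. Tpi1 read 12.48 and 12.62 in normal 129 retina and 12.84 and 12.87 in normal B6 retina, and Pgk1 12.70 and 12.88 in normal 129 retina and 13.06 and 13.04 in normal B6 retina. The 7 differences ran from -0.25 (Hk1) to -0.43 (P4ha1), with adjusted p of 0.016 to 0.050. In each gene no 129 array reached the B6 arrays, which adds no support, since the genes were chosen by their calls on the same arrays. None of the 7 calls held whichever array was left out: without 129 normal replicate 1 the adjusted p was 0.17 for Hk1, 0.20 for Tpi1, 0.31 for Pgk1, 0.15 for Bnip3 and 0.13 for P4ha1, and without B6 normal replicate 2 it was 0.14 for Pfkl and 0.10 for Ero1l.

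At 3DIV, 6 members were lower and 2 higher in 129 than in B6 (17.1% and 5.71%), against 10.2% lower and 10.8% higher over all genes. Pkm, Aldoc, Hk1, Tpi1, Ldhb and Pfkfb3 were lower, and Pdk3 and Ero1l were higher. Housekeeping centring gave 5 lower and 4 higher, and cyclic loess 7 lower and 1 higher. Aldoc was 1.46-fold lower (adjusted p = 0.000873) and Hk1 1.28-fold lower (adjusted p = 0.00468), and with Pkm these were the 3 calls that held without each of the 12 arrays in turn. By the median of its probe sets, the Hk1 call was lost. Ldhb was 1.26-fold lower, and Pfkfb3 read 6.57 and 6.52 in 129 explants and 6.93 and 6.82 in B6 explants, 1.26-fold lower in 129. Pdk3 was 1.19-fold higher and Ero1l 1.26-fold higher in 129. The other 5 calls were lost when single arrays were left out, with adjusted p up to 0.084 (Ldhb), 0.16 (Tpi1) and 0.23 (Pdk3) without 129 3DIV replicate 2, 0.12 (Pfkfb3) without B6 3DIV replicate 1 and 0.078 (Ero1l) without B6 3DIV replicate 2. Leaving out 129 3DIV replicate 2 lowered the count of calls to 3, leaving out 129 3DIV replicate 1 to 5 and leaving out B6 3DIV replicate 2 to 4.

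With the inhibitor, 3 members were lower and 1 was higher in 129 (8.57% and 2.86%), against 5.02% lower and 7.32% higher over all genes. Housekeeping centring gave 3 lower and none higher, and cyclic loess 5 lower and none higher. Aldoc read 11.12 and 11.18 in 129 and 11.53 and 11.72 in B6 (1.39-fold lower, adjusted p = 0.00325). Bnip3 read 9.66 and 9.64 in 129 and 9.89 and 10.05 in B6 (1.25-fold lower, adjusted p = 0.0398), and Ero1l 8.90 and 8.79 in 129 and 8.54 and 8.58 in B6 (1.22-fold higher, adjusted p = 0.0357). Pkm and Aldoc were called whichever array was left out, but Aldoc was not called by the median of its probe sets. Bnip3 and Ero1l lost their calls (adjusted p up to 0.24 without B6 inhibitor replicate 2, and up to 0.22 without 129 inhibitor replicate 1), and the count was 2 without either 129 inhibitor array, either 129 3DIV array or B6 inhibitor replicate 2.

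**Figure D3:**
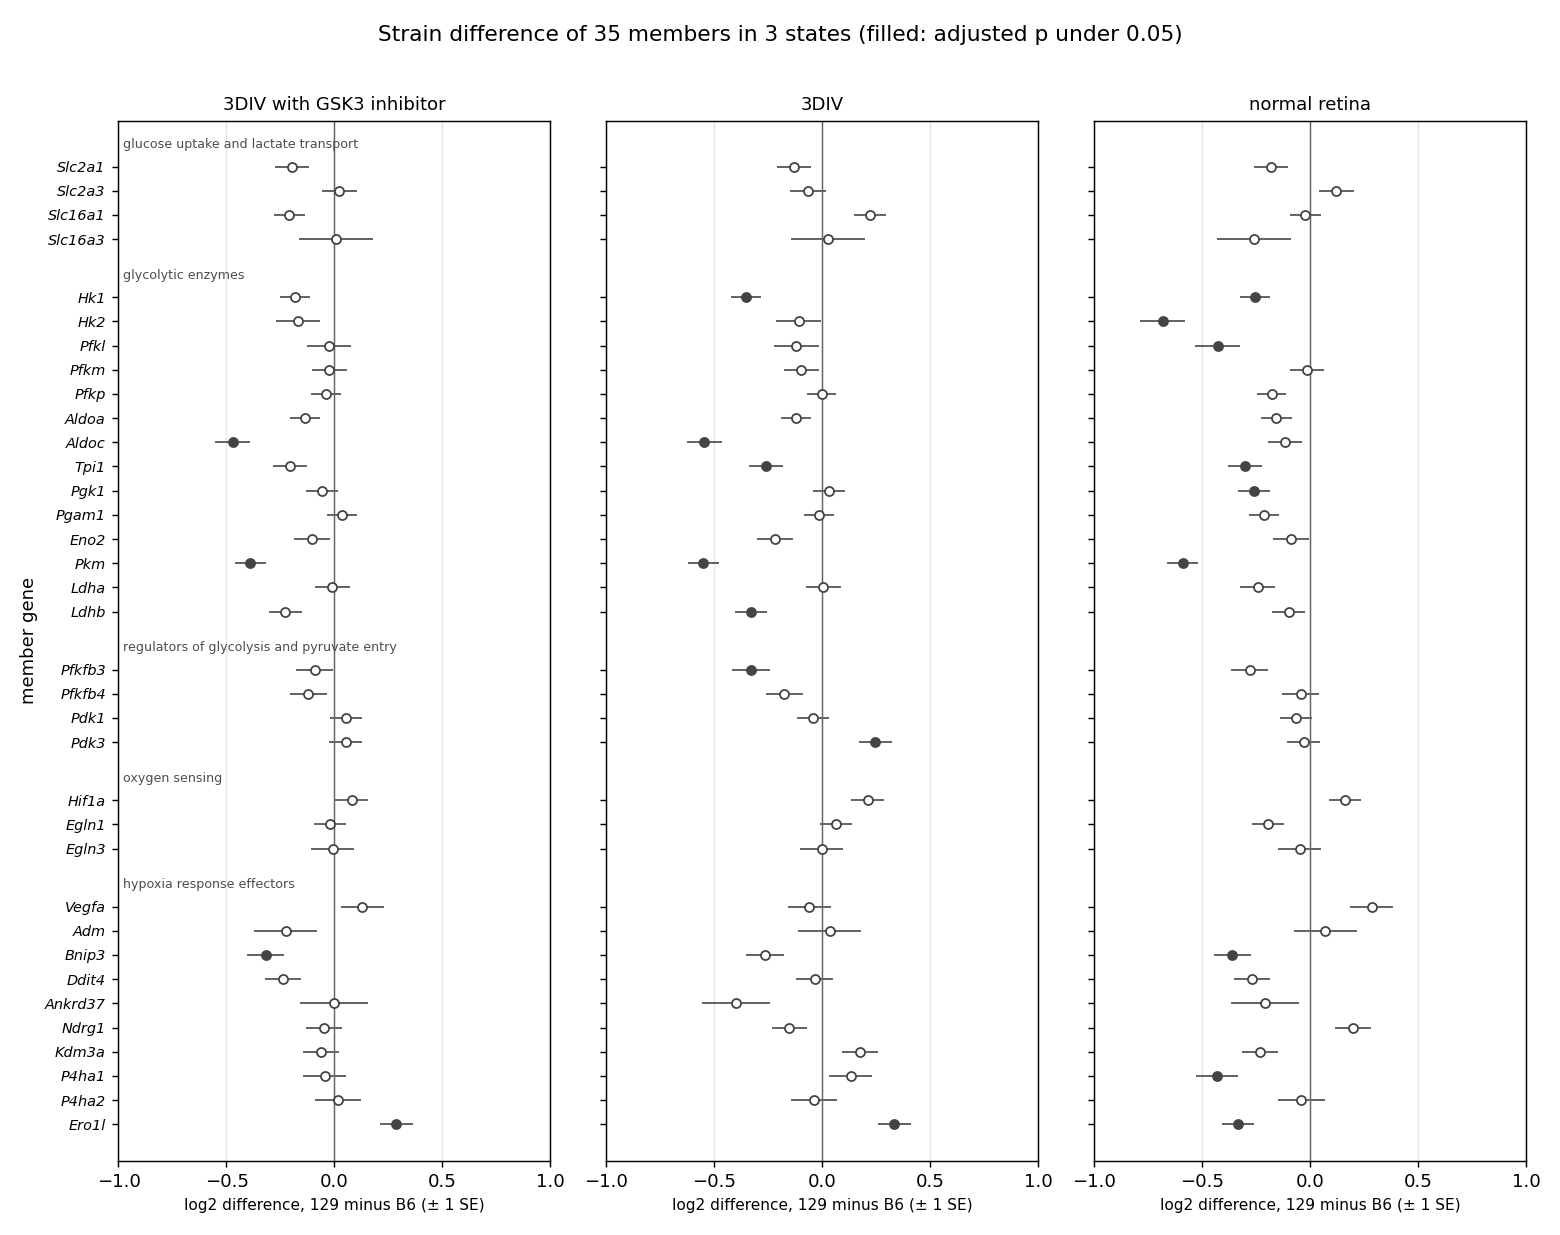
Log2 difference between 129 and B6 for the 35 measured members in explants with the GSK3 inhibitor, explants without it and normal retina, with bars of ± 1 SE and filled points where the adjusted p is under 0.05. The 9 filled points in normal retina all lie below 0, Pkm is filled at or below -0.39 in all 3 panels, and Ero1l is below 0 in normal retina and above 0 in both panels of explants.

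Markers moved with the strain as well. In normal retina none of 10 rod and none of 7 cone markers differed between 129 and B6, while 8 of 12 microglia and macrophage markers and 4 of 10 pigmented epithelium markers were lower in 129, 3 of 9 lens markers were higher and 2 of 10 Müller glia markers were higher. Of 9 gliosis markers, 2 were lower and 1 was higher in 129, while 2 of 10 vessel markers were lower and 1 of 12 inner neuron markers was higher. At 3DIV all 12 microglia and macrophage markers, 5 of 9 markers of reactive gliosis, 3 of 7 cone, 1 of 10 rod, 4 of 12 inner neuron, 3 of 10 Müller glia and 3 of 10 vessel markers were lower in 129, while 2 Müller glia, 1 inner neuron and 1 vessel marker were higher. With the inhibitor 10 of 12 microglia and macrophage, 5 of 9 gliosis, 4 of 10 Müller glia, 2 of 12 inner neuron and 1 of 10 vessel markers were lower, and 1 gliosis, 1 rod and 1 inner neuron marker were higher. Their part in the strain differences of the members was not tested.

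The GSK3 inhibitor did not move the members in 1 direction. Against explants without it, 3 members were higher and 5 lower in 129 (8.57% and 14.3%), and 5 were higher and 6 lower in B6 (14.3% and 17.1%). Over all genes, 7.28% were higher and 7.86% lower in 129, and 8.59% were higher and 12.5% lower in B6, and the medians over the members were 0.01 in both strains. Housekeeping centring gave 3 higher and 2 lower in 129, and 10 higher and 3 lower in B6. Vegfa and Pgam1 rose in both strains, and Aldoc, Pdk1, Ankrd37, Ndrg1 and P4ha2 fell in both. At the probe sets that stand for the members, no difference between the strains in the response passed in limma. Over all genes, 0.599% passed with a higher and 0.357% with a lower response in 129. Of the 35 members, 1 had an unadjusted p under 0.05, a threshold at which no share over all genes is given.

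At the probe sets that stand for the members, Ankrd37 had the largest response in both strains. It read 6.73 and 6.51 with the inhibitor and 7.63 and 7.47 without it in 129, and 6.37 and 6.87 with it and 7.82 and 8.08 without it in B6. Every array with the inhibitor lay below every array without it, across both strains, and Ankrd37 fell by 1.91-fold in 129 and 2.52-fold in B6 (adjusted p = 0.00356 and 0.000309).

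Vegfa went the other way. It read 9.43 and 9.58 with the inhibitor and 8.79 and 8.91 without it in 129, and 9.27 and 9.48 with it and 8.80 and 9.02 without it in B6. It rose by 1.57-fold in 129 and 1.38-fold in B6 (adjusted p = 0.00223 and 0.00924), and the B6 call was lost without B6 inhibitor replicate 2 or B6 3DIV replicate 1 (adjusted p = 0.077 each). Pgam1 read 11.59 and 11.59 with the inhibitor and 11.28 and 11.29 without it in 129, and 11.55 and 11.56 with it and 11.27 and 11.33 without it in B6. It was 1.24-fold higher with the inhibitor in 129 and 1.2-fold higher in B6, with no overlap between the groups.

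Of the members that fell in both strains beside Ankrd37, Ndrg1 read 10.54 and 10.46 with the inhibitor and 10.94 and 11.03 without it in 129, and 10.45 and 10.64 with it and 11.13 and 11.15 without it in B6 (1.4-fold and 1.51-fold lower). Pdk1 fell by 1.23-fold in 129 and 1.31-fold in B6, P4ha2 by 1.3-fold and 1.35-fold and Aldoc by 1.22-fold and 1.28-fold. In B6 alone, Hk1 passed as lower (-0.35, against -0.18 in 129) and Slc2a1, Slc16a1 and Ddit4 as higher (0.28, 0.24 and 0.31, against 0.22, -0.19 and 0.11 in 129). In 129 alone, Pfkfb3 passed as higher, with 6.90 and 7.11 with the inhibitor and 6.57 and 6.52 without it (0.46, against 0.22 in B6).

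Several of these calls depended on single arrays. In 129, Vegfa, Ankrd37 and Ndrg1 held whichever of the 12 arrays was left out, although the median of its probe sets lost the Vegfa call. The calls of Pgam1, Pdk1, Pfkfb3, Aldoc and P4ha2 in 129 did not (adjusted p up to 0.087 for Pgam1 without 129 3DIV replicate 1, 0.057 for Pfkfb3 without 129 3DIV replicate 2, and 0.14, 0.20 and 0.22 for Pdk1, Aldoc and P4ha2 without 129 inhibitor replicate 1), and the count of 8 became 4 without 129 inhibitor replicate 1 or 129 3DIV replicate 1 and 3 without replicate 2 of either group. In B6, Hk1, Pdk1, Ankrd37 and Ndrg1 held, although the median of a gene's probe sets lost Hk1 and Pdk1, and housekeeping centring Hk1. The calls of Slc2a1, Slc16a1, Pgam1, Vegfa, Ddit4, Aldoc and P4ha2 in B6 did not (adjusted p up to 0.22, 0.13 and 0.16 for Slc16a1, Pgam1 and Ddit4 without B6 3DIV replicate 1, 0.18 for Slc2a1 without B6 3DIV replicate 2, 0.077 for Vegfa without B6 inhibitor replicate 2, and 0.086 and 0.13 for Aldoc and P4ha2 without B6 inhibitor replicate 1), and the count of 11 became 7 without B6 inhibitor replicate 1 or B6 3DIV replicate 2 and 6 without B6 inhibitor replicate 2 or B6 3DIV replicate 1.

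**Figure D4:**
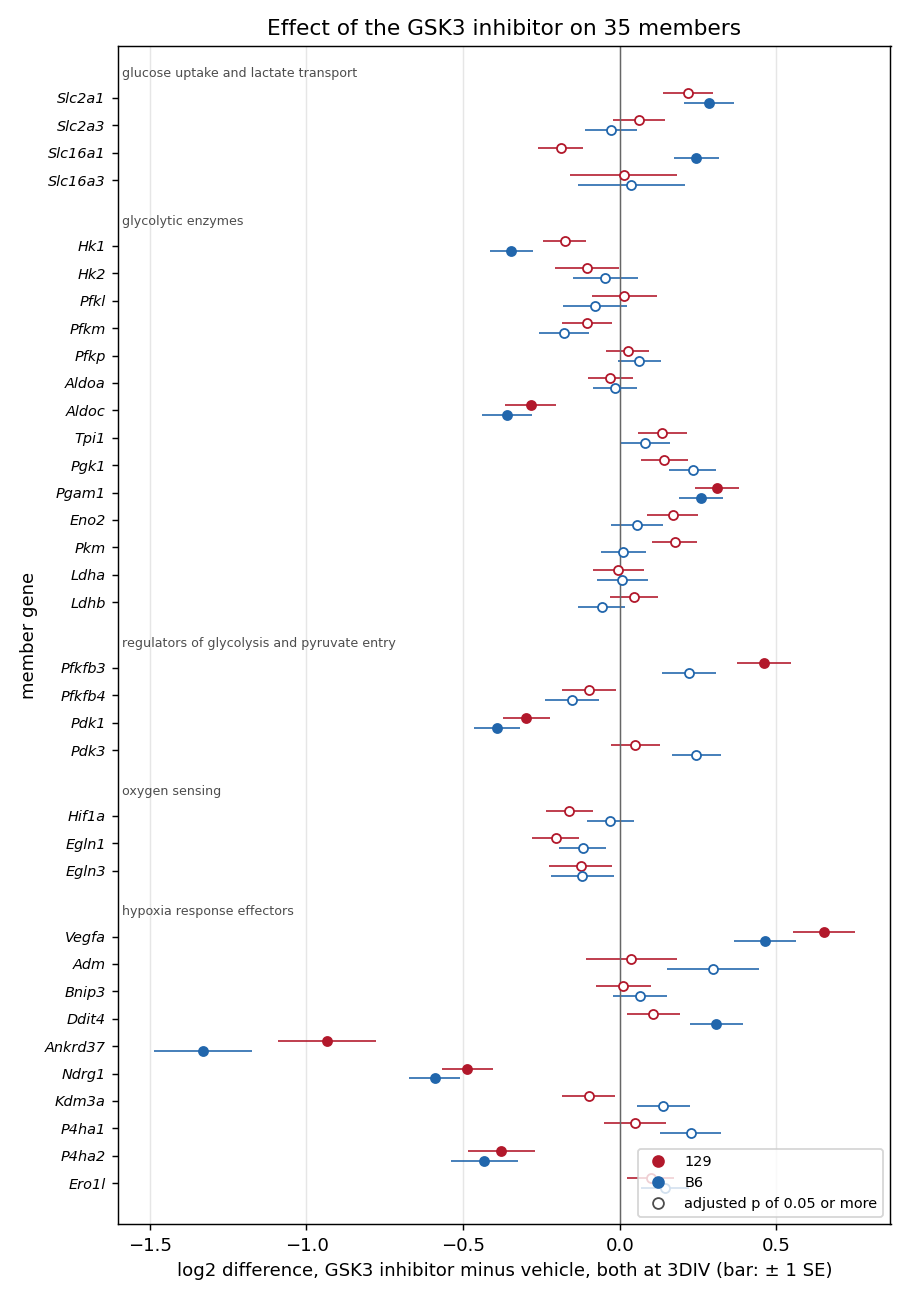
Log2 difference between explants with and without the GSK3 inhibitor at 3DIV for the 35 measured members, with 129 (red) above B6 (blue), bars of ± 1 SE and filled points where the adjusted p is under 0.05. Most points lie close to 0, Ankrd37 lies at -0.94 in 129 and -1.33 in B6, and Vegfa at 0.65 and 0.46.

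Among the further genes, the inhibitor raised 4 and lowered 3 of 23 in the glycolysis and pyruvate list in 129, and raised 4 and lowered 5 in B6. Dlat and Pdha1, subunits of the pyruvate dehydrogenase complex, rose in both strains (1.41-fold and 1.24-fold in 129, 1.41-fold and 1.47-fold in B6), as did Gpd1 (1.64-fold and 1.38-fold) and the monocarboxylate carrier Slc16a7 (1.46-fold and 1.54-fold). Pcx, which turns pyruvate into oxaloacetate, Pdk2 and Eno3 fell in both (1.44-fold, 1.39-fold and 1.31-fold in 129, 1.64-fold, 1.57-fold and 1.31-fold in B6). The 129 calls of Pdha1, Gpd1, Slc16a7, Pdk2 and Eno3 and the B6 calls of Gpd1, Slc16a7 and Eno3 were lost when single arrays were left out (adjusted p up to 0.30, for Slc16a7 without 129 inhibitor replicate 1). Of the 37 genes of the hypoxia list, 5 rose and 6 fell in 129 and 5 rose and 9 fell in B6. The chemokine receptor Cxcr4 was called higher in both strains, with a mean of 5.68 with the inhibitor and 4.30 without it in 129 and of 5.52 with it and 3.73 without it in B6, where the values without it were not shown to exceed background. The transferrin receptor Tfrc rose by 1.56-fold and 1.51-fold. Hmox1 was called higher in 129, with a mean of 9.61 with the inhibitor and 8.58 without it. Selenbp1 was called lower in both strains, with means of 6.62 with it and 7.43 without it in 129, and 6.49 and 7.44 in B6. These calls of Hmox1 and Selenbp1 were lost when single arrays were left out. Mxi1, a MYC antagonist, fell by 1.71-fold and 1.75-fold, and Epas1, the second HIF alpha subunit, by 1.43-fold and 1.33-fold, the B6 call being lost without B6 inhibitor replicate 2 (adjusted p = 0.075). In the same comparison 8 of 10 rod markers fell in 129 and 7 of 10 in B6, as did 4 of 7 and 6 of 7 cone markers, 9 of 12 and 11 of 12 microglia and macrophage markers, and 5 of 9 and 6 of 9 markers of reactive gliosis. In 129, 1 microglia and macrophage marker rose, and in B6 1 gliosis and 1 erythrocyte marker. Of 10 Müller glia markers, 1 rose and 2 fell in each strain. Of 12 inner neuron markers, 1 rose in each strain, while 3 fell in 129 and 6 in B6. Of 10 vessel markers, 3 fell in each strain. The part of these markers in the members' values was not tested.

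Probe sets of the same gene did not always move alike. Of the 21 members with several tested probe sets, Hif1a had probe sets called in opposite directions between the strains, Ndrg1 with the inhibitor in B6 and, with 1 of them near the low end of the signal range, Pfkfb3 after damage in 129. At 1448183_a_at, Hif1a read 7.02 and 7.02 in 129 with the inhibitor, 7.37 and 7.32 in 129 explants and 7.67 and 7.50 in normal 129 retina, and 7.26 and 7.50 in B6 with the inhibitor, 5.85 and 6.09 in B6 explants and 6.03 and 6.31 in normal B6 retina. The 4 arrays of B6 explants without the inhibitor and normal B6 retina lay below all 8 other arrays. The signal was thus 2.67-fold higher in normal 129 than in normal B6 retina and 2.65-fold higher with than without the inhibitor in B6, with a difference of -1.74 ± 0.17 between the strains in the response (adjusted p = 0.002).

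At 1416035_at, by contrast, Hif1a was lower in 129 (-0.34 with the inhibitor, -0.49 at 3DIV and -0.46 in normal retina), with 10.11 and 10.06 in normal 129 retina and 10.65 and 10.44 in normal B6 retina. The call in normal retina was lost without B6 normal replicate 1 (adjusted p = 0.059) and that with the inhibitor without B6 inhibitor replicate 2 (adjusted p = 0.18). At 1427418_a_at, which stands for the gene, no strain difference passed (0.08, 0.21 and 0.16). The arrangement seen at 1448183_a_at, with the 4 B6 arrays below the other 8, occurred at 1200 of 45037 probe sets (2.66%) and at 2 of the 76 member probe sets. The other was 1437759_at of Pfkp. The reverse arrangement, with these 4 arrays above the other 8, occurred at 892 probe sets (1.98%) and also at 2 of the 76. These were 1437974_a_at, which stands for Hk1, and 1434974_at of Pdk1. The sources used here name no hybridisation batch. A batch holding these 4 arrays and the 2 groups they form cannot be told apart at these probe sets, which applies to the strain and inhibitor values given for them. That includes the Hk1 calls between the strains in normal retina and at 3DIV, and with the inhibitor in B6.

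Pfkp at 1437759_at read 8.58 and 8.49 in 129 with the inhibitor, 8.52 and 8.37 in 129 explants and 9.11 and 9.15 in normal 129 retina, and 8.78 and 8.81 in B6 with the inhibitor, 7.16 and 7.37 in B6 explants and 7.93 and 8.35 in normal B6 retina. The response to the inhibitor differed between the strains by -1.45 ± 0.18 there (adjusted p = 0.00563), against -0.04 ± 0.10 at 1416069_at, which stands for the gene (adjusted p = 0.905). Ndrg1 at 1450977_s_at rose with the inhibitor in B6 (0.44, with 8.63 and 8.70 with it and 8.10 and 8.36 without it), while 3 other probe sets of Ndrg1 fell (-0.59, -0.51 and -0.40). Its response differed between the strains by -0.68 (adjusted p = 0.0361), a call lost without any 1 of 7 arrays (adjusted p up to 0.12, without 129 3DIV replicate 2). The rise in B6 was lost without B6 3DIV replicate 1 (adjusted p = 0.075), and the fifth probe set, 1423413_at, gave 0.38 and did not pass. Hif1a 1448183_a_at, Pfkp 1437759_at and Ndrg1 1450977_s_at were the 3 of 76 member probe sets with a lower response in 129, against 0.966% lower and 0.389% higher over all probe sets.

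Pdk1 at 1434974_at read 3.38 and 3.35 in normal 129 retina and 6.04 and 5.84 in normal B6 retina, and stayed between 3.03 and 3.41 on all 6 arrays of 129. That is below the mean of 3 erythrocyte markers on any array (3.83 to 4.11), so the signal in 129 was not shown to exceed background and no fold is given. At 1435836_at, the probe set with the highest signal for Pdk1, normal 129 and B6 retina did not differ beyond the threshold (-0.07 ± 0.07, adjusted p = 0.644). Pfkfb3 at 1456676_a_at read 4.48 and 4.50 in 129 explants and 4.27 and 4.14 in normal 129 retina (0.28, adjusted p = 0.014), where 1416432_at gave -0.56. The signal at 1456676_a_at lies at the 22.8 percentile of all probe sets and was not shown to exceed background. The rise at 1456676_a_at was lost without 129 normal replicate 2 (adjusted p = 0.12) and became -0.06 with centring on housekeeping genes.

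**Figure D5:**
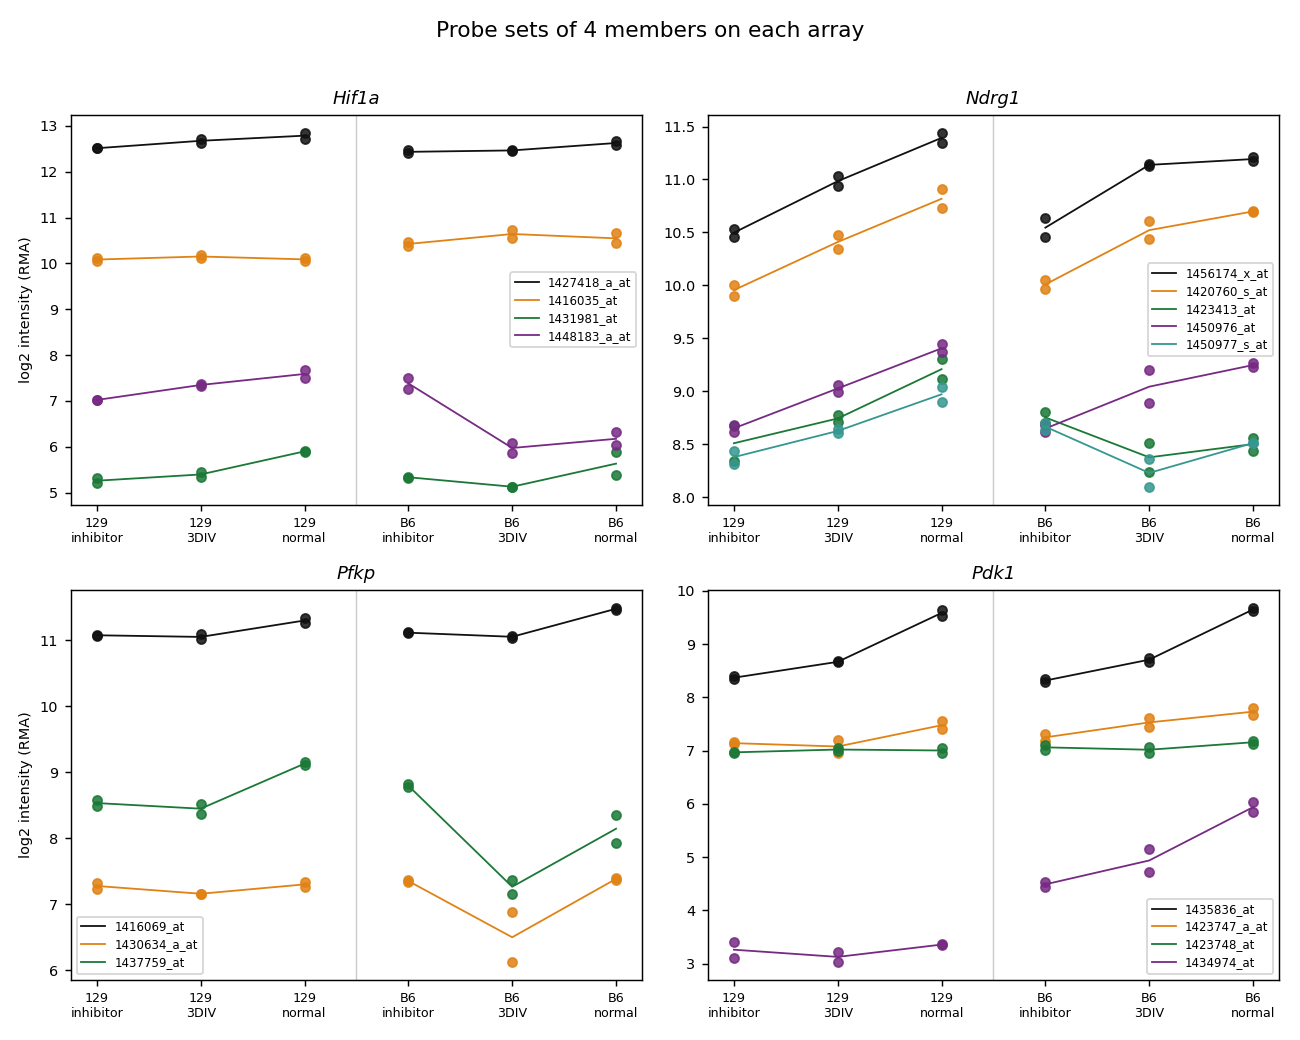
Log2 intensity at every tested probe set of Hif1a, Ndrg1, Pfkp and Pdk1 on the 12 arrays, with 129 on the left and B6 on the right of each panel. Points are arrays and lines join group means. The purple Hif1a and green Pfkp probe sets are lowest in B6 explants without the inhibitor and normal B6 retina, and the purple Pdk1 probe set is low on every 129 array.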

How the data were processed

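RNA of 12 neural retinas or explants was hybridised to Affymetrix mouse genome arrays. The deposited values are intensities on a linear scale, which the authors obtained with RMA per the submitters' processing notes (background correction, quantile normalization and a summary over probes; version not given in the sources used here). Quantile normalization gives all arrays the same distribution, so a shift of all genes together would not show. The intensities were turned into log2 values. No depth is defined for arrays, and the number of arrays limits the precision.

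Means of the 6 groups were fitted to all 12 arrays with limma 3.58.1 in R 4.3.3 (lmFit and eBayes), and p-values of 9 comparisons were adjusted with the Benjamini-Hochberg method over 45037 probe sets, 64 control probe sets being left out. The threshold was an adjusted p of 0.05. Each gene was represented by the probe set with the highest mean signal. The fit was tested on simulated data. No table column was left unassigned. Probe sets with several symbols (4 of them hold a member) were not used.

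The members and gene lists were chosen with earlier results of these data known. Every member could be named. Values per array are given for members that changed at least 2-fold, were called between the strains or had probe sets called in opposite directions. From other lists, up to 4 called genes per direction are named. Alternatives were the replicate number as a block, a fit of the compared arrays alone, a filter on level, cyclic loess, centring on 8 housekeeping genes, trended and robust variances, the median of a gene's probe sets, use of probe sets ending in _s_at or _x_at only where a gene had no other, and leaving out each array. Promoters came from RefSeq (GRCm38.p6). Figures were drawn with matplotlib.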

Additional observations from a re-analysis of the deposited data

Results flagged for a closer look

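A difference between the strains passed the threshold for the following probe sets, each with an interaction term in limma. In the change after damage, Ero1l differed by 0.67 (adjusted p = 0.012) at the probe set that stands for it, by 0.51 (adjusted p = 0.047) at 1419029_at and by 0.77 (adjusted p = 0.019) at 1419030_at, with the higher change in 129 at each. Pgf, a VEGF family ligand in the further hypoxia list, rose by 2.23-fold in 129 and 4.55-fold in B6 after damage, a difference of -1.03 (adjusted p = 0.003), and fell by 1.33-fold in 129 and 2.46-fold in B6 with the GSK3 inhibitor, a difference of 0.89 (adjusted p = 0.011). The Pgf fall in 129 with the inhibitor was lost without any 1 of 3 arrays (adjusted p up to 0.12, without 129 3DIV replicate 1). The response to the inhibitor further differed by -1.74 (adjusted p = 0.002) at Hif1a 1448183_a_at, by -1.45 (adjusted p = 0.0056) at Pfkp 1437759_at and by -0.68 (adjusted p = 0.036) at Ndrg1 1450977_s_at, where the probe sets that stand for these genes did not pass.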

How the results depend on the processing

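Of 764 values of member calls under 8 alternatives other than leaving out an array, 691 kept their direction and call, 71 kept the direction only and 2 were reversed: Pdk3 after damage in 129 (-0.099 with housekeeping centring) and Pdk1 with the inhibitor in 129 (0.005 as the median of its probe sets). With housekeeping centring 5 further values turned: Pfkfb3 1456676_a_at (-0.064), Ero1l 1419029_at (-0.083), Mpc1 (-0.007) and Bhlhe40 (-0.057) after damage in 129 and Egln2 (-0.02) after damage in B6. That centring moved the median of all probe sets to -0.38 in 129 and -0.32 in B6 after damage and to 0.13 with the inhibitor in B6. With it, 34 members were called lower in 129 and 33 in B6 after damage, and none higher.

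Of 72 counts of called members, 54 stayed within 1.5 times of the reported count. For the strains in normal retina (9 reported), 2 members were called in a fit of the compared arrays alone, 4 with housekeeping centring (2 higher and 2 lower), 4 by the median of probe sets and 19 with trended and robust variances. For the strains with the inhibitor (4 reported), 2 were called with the replicate block, with the compared arrays alone and by the median of probe sets, 7 above the median level and 11 with trended and robust variances. At 3DIV, housekeeping centring gave 4 higher and 5 lower. For the inhibitor in B6 (11 reported), 6 were called with the compared arrays alone. For the inhibitor in 129 (8 reported), 5 were called with housekeeping centring, 4 by the median of probe sets and 14 with trended and robust variances. For the difference between the strains in the change after damage (1 reported), 5 were called above the median level and 7 with trended and robust variances. For the difference in the response (none reported), 1 was called above the median level, 1 with housekeeping centring and 1 with trended and robust variances. The cause of these shifts was not tested.

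Leaving out 1 array gave 23 to 29 called members after damage in 129 and 24 to 27 in B6, 0 to 1 for their difference, 2 to 8 for the strains in normal retina, 3 to 8 at 3DIV and 2 to 4 with the inhibitor, 3 to 8 for the inhibitor in 129 and 6 to 12 in B6, and 0 for their difference. A lone array was assumed to vary like the other groups.

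The replicate numbers did not pair the arrays, since deviations of same-numbered arrays correlated at -0.107 to 0.044. With the replicate block, the other counts stayed within 1.5 times of those reported.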
